A study of Homo sapiens with 4 samples.

Results

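The 10 genes described here encode the receptors through which TRAIL, FAS ligand and TNF signal cell death, together with the first proteins these receptors recruit. They were chosen by name, as the rows of the SKBR3 counts table for TNFRSF10A, TNFRSF10B, TNFRSF10D, FAS, TNFRSF1A, FADD, CASP8, CFLAR, TRADD and RIPK1, and all 10 had a row among the 56271 of the table. SKBR3 is an established HER2-positive breast cancer cell line. The table compared 2 libraries of cells expressing eGFP alone (eGFP control) with 2 libraries of VIRMA-overexpressing cells (with VIRMA, where values are set side by side). Per the study's methods, both populations were transduced with a lentiviral vector, sorted for eGFP and expanded. The control vector expressed eGFP from the human ubiquitin C promoter, and the VIRMA vector carried eGFP, a self-cleaving peptide and then the full-length isoform of VIRMA with an HA tag. Each group was therefore a transduced pool and not a set of clones, and differences that arose between the pools by themselves, and the action of VIRMA, cannot be told apart. For all 4 libraries the labels speak of culture in a low-oxygen chamber, whereas the study treats its RNA sequencing as ordinary culture, so the oxygen level is uncertain.

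TRAIL, FAS ligand and TNF bind receptors whose intracellular death domain recruits adaptor proteins. At the TRAIL and FAS receptors the adaptor FADD brings in caspase-8, an initiator caspase that is activated when its molecules are held together. The caspase-8 homologue FLIP, encoded by CFLAR, enters the same complex and limits this step. At TNF receptor 1 (TNFRSF1A) the adaptor TRADD and the kinase RIPK1 assemble a complex that signals to NF-kappaB, and the same proteins can later join FADD and caspase-8. CHOP, the transcription factor encoded by DDIT3, is induced by endoplasmic reticulum stress and is known to activate TNFRSF10B.

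The libraries held between 81446932 and 86375474 counts. VIRMA, listed as KIAA1429, had control counts of 710 and 682 against 3437 and 3460 with VIRMA, a log2 difference of 2.29 (edgeR adjusted p 9.74e-26, SE 0.0685). It passed the expression filter of the test through the VIRMA-overexpressing libraries alone. Its counts also served to check which columns are VIRMA, so the difference is a description and not independent support. Counts per gene do not separate reads of the vector from those of the cells' own gene. The 5 epithelial markers of this line (ERBB2, KRT8, KRT18, KRT19 and EPCAM) were above 1 RPKM (reads scaled by exon length and library total) in all libraries, and their summed level was 5543 to 5674 RPKM in the controls and 5370 to 5387 RPKM in the VIRMA-overexpressing libraries. Singly, their log2 differences were -0.51 for KRT8, -0.39 for EPCAM, -0.12 for KRT19, -0.001 for ERBB2 and 0.075 for KRT18. None of 5 leukocyte, 4 fibroblast and 3 endothelial markers exceeded 1 RPKM in all libraries. COL1A1 exceeded it in both controls (1.335 and 1.288 RPKM) and CDH5 in both VIRMA-overexpressing libraries (1.207 and 1.299 RPKM). The summed levels of these marker lists in controls and VIRMA-overexpressing libraries were 0.552 to 0.851 and 0.513 to 0.524 RPKM for leukocytes, 1.29 to 1.34 and 0.877 to 0.928 RPKM for fibroblasts, and 0.941 to 1.10 and 1.30 to 1.43 RPKM for endothelial cells. No marker was at 0 in all 4 libraries; the endothelial sum was mostly CDH5 and the fibroblast sum mostly COL1A1, while PTPRC had counts of 23 and 13 with eGFP alone and of 3 and 0 with VIRMA. The part of other cells in the results was not tested.

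Of the 10 genes, 8 passed the filter (above 1 RPKM in at least 2 of 4 libraries) and were tested. At an edgeR adjusted p below 0.05, 3 were higher in VIRMA-overexpressing cells (TNFRSF10B, CFLAR and CASP8), 3 were lower (TNFRSF10A, FADD and TNFRSF1A), and TRADD and RIPK1 were not called. Over all 12205 tested genes 35.1% were called higher and 35.9% lower, so these shares are near the background. The split among the 8 became 3 higher and 2 lower with upper-quartile factors and 3 higher and 1 lower with library totals. With a fold change above 2 also required, TNFRSF10B was the single gene called, against 4.52% of all tested genes called higher and 2.93% called lower. The median log2 fold change was 0.005 over the 8 genes and 0.012 over all tested genes. Leaving out 1 library moved the median of the 8 to both sides of 0, from -0.047 without VIRMA-overexpressing replicate 2 and -0.034 without eGFP control replicate 1 to 0.041 without eGFP control replicate 2 and 0.056 without VIRMA-overexpressing replicate 1.

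**Figure D1:**
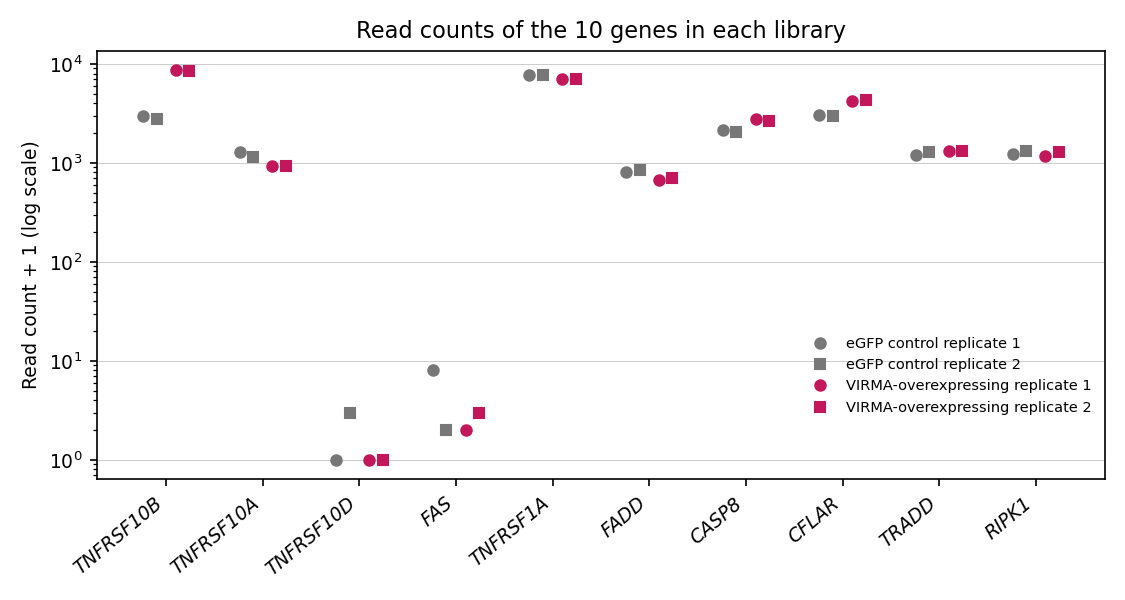
Read count plus 1 on a log scale for the 10 genes in each library, with eGFP control libraries in grey, VIRMA-overexpressing libraries in magenta, circles for replicate 1 and squares for replicate 2. TNFRSF10B lies at 2767 to 2945 counts in the controls and 8527 to 8638 in the VIRMA-overexpressing libraries, while FAS and TNFRSF10D do not exceed 7 counts in any library.

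The receptor with the largest difference was TNFRSF10B, the death domain receptor for TRAIL also called DR5. The control libraries held 2945 and 2767 of its reads and the VIRMA-overexpressing libraries 8638 and 8527. Both VIRMA-overexpressing libraries were far above both controls, at 102.4 ± 0.805 CPM (counts scaled to a common library size by TMM) against 34.6 ± 1.68 CPM (mean ± SD, n = 2). On the log2 scale the difference was 1.57 (edgeR adjusted p 7.28e-27, SE 0.0431), or 2.96-fold, with a 95% interval of 1.48 to 1.66. It ranked 158 of 12205 tested genes in upward log2 fold change. In bulk RNA, a change in the share of cells expressing a gene and a change in its RNA per cell cannot be told apart.

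TNFRSF10A encodes the other TRAIL receptor with a full death domain, DR4. Control libraries held 1278 and 1151 of its reads, and VIRMA-overexpressing libraries 924 and 939. Both VIRMA-overexpressing libraries lay below both controls, in the opposite direction to TNFRSF10B. On the log2 scale the difference was -0.40 (edgeR adjusted p 0.000115, SE 0.0875), from 14.7 ± 1.15 to 11.1 ± 0.316 CPM (SD, n = 2).

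The TRAIL receptors without a full death domain were below the filter. TNFRSF10D, a decoy receptor with a truncated death domain, was counted 0 and 2 times with eGFP alone and 0 times in either VIRMA library. A count of 0 allows up to 3 counts, which for this gene is 0.0098 to 0.0104 RPKM depending on the library, and no difference was detectable at this depth. TNFRSF10C, the decoy without a death domain, had control counts of 108 and 118 against 82 and 107 with VIRMA, below the filter. The secreted decoys that bind TRAIL or FAS ligand were also low, with 21 to 32 counts for TNFRSF11B and 0 in every library for TNFRSF6B.

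**Figure D2:**
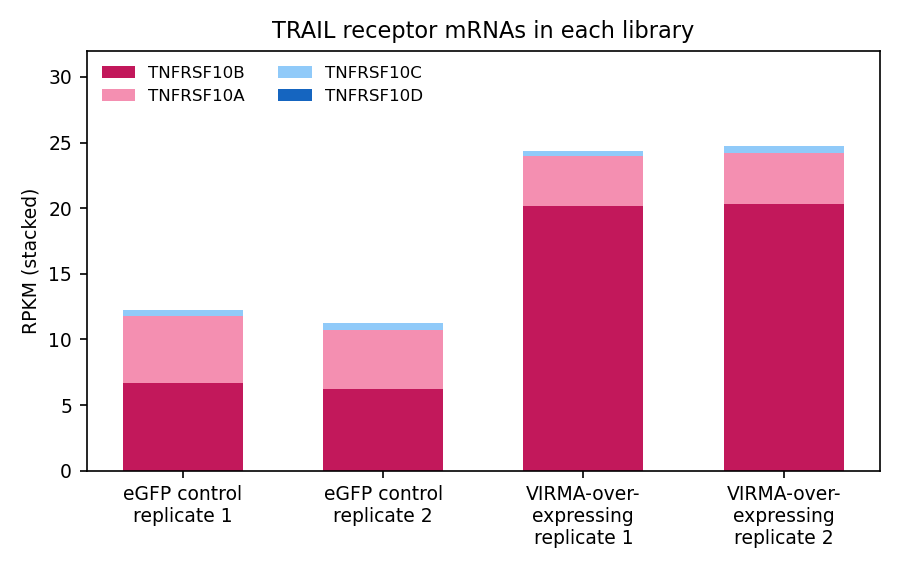
Stacked RPKM of the TRAIL receptor mRNAs TNFRSF10B, TNFRSF10A, TNFRSF10C and TNFRSF10D in each of the 4 libraries, with bars starting at 0. The summed level is 12.2 and 11.3 RPKM with eGFP alone and 24.3 and 24.7 RPKM with VIRMA, and TNFRSF10B makes up 82.9% and 82.2% of the bars with VIRMA.

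Within a library, the ratio of 2 genes does not depend on how libraries are scaled. The RPKM ratio of TNFRSF10B to TNFRSF10A was 1.32 and 1.38 with eGFP alone and 5.35 and 5.20 with VIRMA, so the groups did not overlap. TNFRSF10B made up 54.6% and 55.2% of the summed RPKM of the 4 TRAIL receptors with eGFP alone and 82.9% and 82.2% with VIRMA. The summed level was 12.2 and 11.3 RPKM with eGFP alone, below the 24.3 and 24.7 RPKM found with VIRMA. These are descriptions, since 2 libraries against 2 cannot give an exact two-sided permutation p below 0.33.

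The TRAIL receptor genes lie together on GRCh38 chromosome 8, and the positions and neighbours of TNFRSF10B and TNFRSF10A were as follows. TNFRSF10B (23020133 to 23069179, minus strand) and TNFRSF10A (23190452 to 23225126, minus strand) span 205.0 kb, with TNFRSF10C (23084355 to 23117437, plus strand) and TNFRSF10D (23135588 to 23164030, minus strand) between them. RHOBTB2, whose end overlaps that of TNFRSF10B on the opposite strand by 67 exonic bases, had counts of 3490 and 3497 with eGFP alone and of 3946 and 3429 with VIRMA, a log2 difference of 0.06 (edgeR adjusted p 0.332, SE 0.052). It was called higher with upper-quartile factors (0.13, edgeR adjusted p 0.0285), with library totals (0.14, edgeR adjusted p 0.0177) and without VIRMA-overexpressing replicate 2 (0.14, edgeR adjusted p 0.0341), and stood at -0.03 without VIRMA-overexpressing replicate 1. TNFRSF10A shares 266 exonic bases with RP11-1149O23.3 and 224 with RP11-1149O23.2, both on the opposite strand. These had 364 to 435 and 113 to 148 counts. Whether the counting used strand is not given in the sources used here, so reads in such shared stretches are uncertain.

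FAS encodes the receptor for FAS ligand and was almost without reads. It had control counts of 7 and 1 against 1 and 2 with VIRMA, at most 0.0219 RPKM in any library. The first control library held the highest count and the other 3 libraries overlapped. FAS lies on chromosome 10 (88990582 to 89015785, plus strand) and shares 380 of its 3750 exonic bases with ACTA2 on the opposite strand, which had 67 to 76 counts. FASLG, which encodes its ligand, had 0 counts in every library, with a limit of 0.0184 to 0.0195 RPKM.

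TNFRSF1A, which encodes TNF receptor 1, had the highest level per length of the 10 genes in both groups, at 22.4 and 22.2 RPKM with eGFP alone and 21.3 and 21.7 RPKM with VIRMA. Its reads numbered 7661 and 7664 with eGFP alone and 7064 and 7088 with VIRMA. The libraries of the VIRMA-overexpressing group were both lower, by a small amount. On the log2 scale the difference was -0.13 (edgeR adjusted p 0.00187, SE 0.0377), and the call was lost with upper-quartile factors (edgeR adjusted p 0.131) and library totals (edgeR adjusted p 0.244). TNFRSF1A lies on chromosome 12 (6328757 to 6342114, minus strand). TNFRSF1B, which encodes TNF receptor 2 and carries no death domain, had counts of 120 and 110 with eGFP alone and of 76 and 71 with VIRMA, below the filter.

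CASP8 encodes caspase-8 itself, and CFLAR its inhibitor FLIP. CASP8 had control counts of 2143 and 2031 against 2749 and 2635 with VIRMA. CFLAR had counts of 3037 and 2981 with eGFP alone and of 4172 and 4330 with VIRMA. For both genes the VIRMA-overexpressing libraries were above both controls. CASP8 rose from 25.3 ± 1.07 to 32.1 ± 0.416 CPM (SD, n = 2), or 0.35 on the log2 scale (edgeR adjusted p 4.26e-06, SE 0.0601). CFLAR rose from 36.4 ± 0.64 to 50.8 ± 2.2 CPM (SD, n = 2), or 0.48 on the log2 scale (edgeR adjusted p 9.91e-11, SE 0.0492). Neither reached a fold change of 2, at 1.27-fold for CASP8 and 1.39-fold for CFLAR.

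The caspase and its inhibitor thus were both called higher. Their ratio within a library is given as a description. The RPKM ratio of CFLAR to CASP8 was 0.456 and 0.472 with eGFP alone and 0.488 and 0.528 with VIRMA. The groups did not overlap, but the difference between the group means (0.464 against 0.508) was of the size of the gap between the VIRMA-overexpressing replicates. The absolute ratio rests on the deposited exonic lengths, which join the exons of all isoforms (22529 bases for CFLAR and 7243 for CASP8), and counts per gene do not separate the long and short forms of FLIP. As a ratio of raw counts it was 1.42 and 1.47 with eGFP alone and 1.52 and 1.64 with VIRMA.

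CFLAR and CASP8 lie close together on chromosome 2. CFLAR (201116104 to 201176687) ends 56.8 kb before CASP8 (201233443 to 201287711) begins, both on the plus strand, with the related caspase gene CASP10 (201182881 to 201229406, plus strand) between them. CASP10 had control counts of 25 and 23 against 38 and 30 with VIRMA, below the filter. CFLAR-AS1, which shares 777 exonic bases with CFLAR on the opposite strand, had counts of 45 and 56 with eGFP alone and of 86 and 108 with VIRMA. Its counts were higher with VIRMA, as those of CFLAR were, but few beside them, and reads of the pair may be mixed. The pseudogene IMPDH1P10 shares 1488 bases with CFLAR and had 0 to 4 counts.

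The most upstream RefSeq promoter window of each gene is shown because CFLAR and CASP8 lie close together and were both called higher. Each window is 300 bases, from 250 before to 50 after an annotated start, read 5′ to 3′ on the plus strand of GRCh38.p14 (chr2:201118466-201118765 for CFLAR and chr2:201233213-201233512 for CASP8), and capitals mark each CG dinucleotide.
CFLAR: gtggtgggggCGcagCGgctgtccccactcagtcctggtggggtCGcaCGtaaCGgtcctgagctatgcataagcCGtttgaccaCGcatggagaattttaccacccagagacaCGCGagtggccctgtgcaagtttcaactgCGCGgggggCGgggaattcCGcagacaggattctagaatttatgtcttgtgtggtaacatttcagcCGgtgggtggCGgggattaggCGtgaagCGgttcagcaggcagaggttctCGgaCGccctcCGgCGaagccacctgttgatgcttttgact
CASP8: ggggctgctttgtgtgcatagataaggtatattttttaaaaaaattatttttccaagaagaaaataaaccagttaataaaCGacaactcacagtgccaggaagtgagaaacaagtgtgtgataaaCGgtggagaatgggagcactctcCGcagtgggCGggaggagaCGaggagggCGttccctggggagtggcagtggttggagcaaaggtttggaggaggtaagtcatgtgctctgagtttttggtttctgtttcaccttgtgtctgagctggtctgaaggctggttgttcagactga
The CFLAR window held 21 CG dinucleotides and the CASP8 window 6, against a median of 14 over 35116 RefSeq windows of the same length, so the 2 sequences stand on opposite sides of that median. The other windows held 0 to 22 CG dinucleotides for CFLAR and 5 and 6 for CASP8. Windows were matched for 6 of the 10 genes (CFLAR, CASP8, RIPK1, FAS, FADD and TNFRSF1A), 15 windows in all, and not for TNFRSF10A, TNFRSF10B, TNFRSF10D and TRADD. None of the 15 held TGATGNAA (a CHOP-ATF composite motif, on either strand), which 3.62% of all windows held, nor GGGANTTTC (an NF-kappaB motif, on either strand), which 1.28% held. This says only that these letters are not in those windows. Looser forms of either motif were not searched. The printed CFLAR window holds gggaattcC, which is close to the searched NF-kappaB letters and may match a looser form. The search therefore does not show that this window lacks an NF-kappaB site. The windows do not show which annotated start SKBR3 cells use.

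FADD encodes the adaptor that links TRAIL and FAS receptors to caspase-8. It had control counts of 817 and 850 against 668 and 697 with VIRMA. Both VIRMA-overexpressing libraries were below both controls, in the opposite direction to CASP8 and CFLAR. On the log2 scale the difference was -0.31 (edgeR adjusted p 0.00779, SE 0.102), from 10.1 ± 0.238 to 8.15 ± 0.383 CPM (SD, n = 2). The call was lost with library totals (log2 fold change -0.22, edgeR adjusted p 0.0513) and without VIRMA-overexpressing replicate 1 (-0.26, edgeR adjusted p 0.0701). FADD lies on chromosome 11 (70203163 to 70207390, plus strand). An antisense gene, RP11-805J14.5, lies wholly within its exons and covers 54.9% of its 1841 exonic bases, with 0 counts in every library. The level of FADD could be understated if reads there were treated as ambiguous.

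The levels of CASP8 and CFLAR relative to FADD were higher in both VIRMA-overexpressing libraries, as a description with no test. The RPKM ratio of CASP8 to FADD was 0.667 and 0.607 with eGFP alone and 1.05 and 0.961 with VIRMA. The ratio of CFLAR to FADD was 0.304 and 0.287 with eGFP alone and 0.510 and 0.508 with VIRMA. In both ratios the groups were apart by more than the gap between replicates.

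TRADD, the adaptor that TNF receptor 1 binds directly, had counts of 1214 and 1273 with eGFP alone and of 1312 and 1333 with VIRMA. Its log2 fold change was 0.07 (edgeR adjusted p 0.437, SE 0.0781), with a 95% interval of -0.09 to 0.23. TRADD lies on chromosome 16 (67154180 to 67160298, minus strand) and shares 126 exonic bases with FBXL8 on the opposite strand, which had control counts of 640 and 627 against 933 and 949 with VIRMA. RIPK1, the death domain kinase of the same complex, had counts of 1226 and 1307 with eGFP alone and of 1185 and 1281 with VIRMA, and the groups overlapped. Its log2 fold change was -0.06 (edgeR adjusted p 0.531, SE 0.0811), with a 95% interval of -0.22 to 0.11, and its sign depended on the scaling. RIPK1 lies on chromosome 6 (3063991 to 3115187, plus strand).

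**Figure D3:**
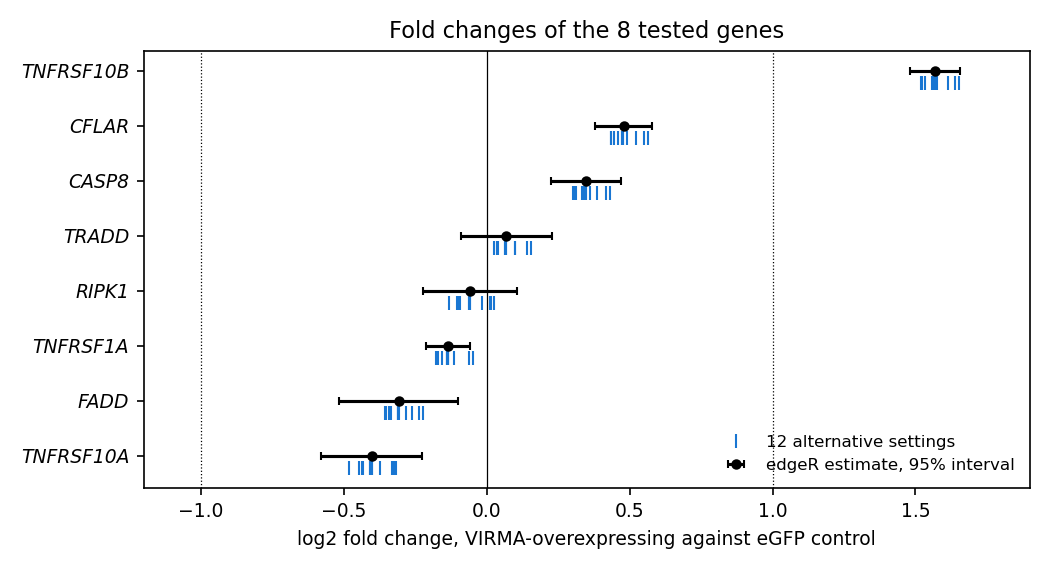
Log2 fold change of the 8 tested genes (black points, edgeR) with 95% intervals, blue ticks for the 12 alternative settings, and dotted lines at a fold change of 2 in either direction. TNFRSF10B at 1.57 lies alone beyond the dotted lines. CFLAR, CASP8 and TRADD, which was not called, lie above 0 under every setting. TNFRSF10A, FADD and TNFRSF1A lie below 0 under every setting, and RIPK1 lies on both sides of 0.

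The order of levels per length differed between the groups at a few places. In the controls it ran TNFRSF1A, TNFRSF10B, TRADD, FADD, TNFRSF10A, RIPK1, CASP8 and CFLAR. The replicate ranges overlapped for RIPK1 (3.39 to 3.58 RPKM) and CASP8 (3.25 to 3.47 RPKM), and did not overlap for TRADD (5.54 to 5.74 RPKM) and FADD (5.20 to 5.35 RPKM) or for FADD and TNFRSF10A (4.52 to 5.07 RPKM). In the VIRMA-overexpressing libraries TNFRSF10B (20.2 to 20.3 RPKM) came close to TNFRSF1A (21.3 to 21.7 RPKM). CASP8 (4.47 to 4.58 RPKM) moved up beside FADD (4.38 to 4.65 RPKM), and these 2 overlapped. FAS and TNFRSF10D stood last in both groups.

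CHOP, named in the background as an activator of TNFRSF10B, and its own activator ATF4 were measured in the same libraries. DDIT3 had control counts of 994 and 1036 against 11635 and 11364 with VIRMA, a log2 difference of 3.48 (edgeR adjusted p 3.2e-36, SE 0.0462). ATF4 showed a log2 difference of 0.73 (edgeR adjusted p 1.53e-22, SE 0.0282). Whether TNFRSF10B follows CHOP in these cells was not tested.

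Most ligands of these receptors were scarcely expressed by the cells themselves. Of 8 ligand genes, TNF was the 1 that passed the filter. Its level was 1.99 and 2.58 RPKM with eGFP alone and 1.91 and 1.43 RPKM with VIRMA. It had counts of 285 and 373 with eGFP alone and of 265 and 195 with VIRMA, a log2 difference of -0.54 (edgeR adjusted p 0.00828, SE 0.18). The call was lost without eGFP control replicate 2 (-0.34, edgeR adjusted p 0.149) and without VIRMA-overexpressing replicate 2 (-0.35, edgeR adjusted p 0.156), and the value was -0.72 without eGFP control replicate 1 and -0.76 without VIRMA-overexpressing replicate 1. TNFSF10, which encodes TRAIL, had control counts of 29 and 11 against 26 and 9 with VIRMA, and the groups overlapped. LTA had 1 to 4 counts.

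Around the TNF receptor, 8 of 19 tested complex regulators were higher, 6 were lower and 5 were not called, shares close to the 35.1% and 35.9% of all tested genes. Their median log2 fold change was 0.06, and 0.155 without eGFP control replicate 1. CYLD, one of the higher genes and named after its values were seen, passed the filter through the VIRMA-overexpressing libraries alone. With library totals the split was 10 higher and 4 lower. BIRC2, a ubiquitin ligase that modifies RIPK1, rose from 1178 and 1223 to 2215 and 2326 counts (log2 fold change 0.90, edgeR adjusted p 7.23e-14, SE 0.0696). RBCK1, a subunit of the linear ubiquitin ligase and named here after its values were seen, was higher by a log2 fold change of 0.77 (edgeR adjusted p 3.1e-22, SE 0.0302). TRAF2, the scaffold that carries BIRC2 to the receptor, was lower by a log2 fold change of -0.37 (edgeR adjusted p 1.87e-10, SE 0.0396). TNFAIP3, a deubiquitinase that ends the signal, showed a log2 difference of -0.02 with overlapping groups (edgeR adjusted p 0.877). BIRC3 was below the filter, with counts of 20 and 58 with eGFP alone and of 53 and 90 with VIRMA. Of 14 tested NF-kappaB target genes and subunits, 10 were lower, 3 were higher and 1 was not called, with a median of -0.23, and library totals gave 4 higher and 8 lower. TRAF1 of this list, named after its values were seen, was below the filter, with counts of 98 and 53 with eGFP alone and of 334 and 350 with VIRMA. With a looser filter (filterByExpr) 22 of the list were tested, and 4 were higher and 11 lower. Among 5 tested receptors outside the group of 10, 2 were higher, 1 was lower and 2 were not called.

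Downstream of caspase-8, of 12 tested caspases and effectors, 8 were lower, 2 were higher and 2 were not called, with a median log2 fold change of -0.48, beside 35.9% lower and 35.1% higher over all tested genes. CASP9, one of the higher genes and named after its values were seen, passed the filter through the VIRMA-overexpressing libraries alone. BID, which caspase-8 cleaves to engage mitochondria, fell from 2344 and 2171 to 1400 and 1523 counts (log2 fold change -0.65, edgeR adjusted p 3.08e-10, SE 0.0698). XIAP, an inhibitor of caspases, rose from 1597 and 1906 to 2991 and 2860 counts (log2 fold change 0.72, edgeR adjusted p 7.8e-12, SE 0.0667).

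Of 5 genes of necroptosis, the form of death that RIPK1 can start when caspase-8 is inactive, 3 were tested and called lower. Over all tested genes 35.9% were called lower. MLKL was among them because it passed the filter through the control libraries alone, where it was higher, so the count is no support for a change of the list. RIPK3, the kinase that RIPK1 engages, had control counts of 1209 and 993 against 571 and 575 with VIRMA (log2 fold change -0.96, edgeR adjusted p 3.44e-10, SE 0.104). MLKL, which RIPK3 phosphorylates, had counts of 716 and 603 with eGFP alone and of 356 and 335 with VIRMA (-0.95, edgeR adjusted p 5.88e-08, SE 0.131). For both, the first control library was the highest of the 4.

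Of 12 tested regulators of the caspase-8 complex, 5 were lower, 3 were higher and 4 were not called, with a median log2 fold change of -0.008. The split was 5 higher and 5 lower with both upper-quartile factors and library totals, where the median turned positive (0.063 and 0.077), and it was 0.007 without VIRMA-overexpressing replicate 1 and -0.089 without eGFP control replicate 1. HSPA1A, a heat shock protein, was the single gene of the 66 tested in the pathway lists past both thresholds, a number that ran from 1 to 4 over the alternatives and was 4 without eGFP control replicate 2 and 2 without VIRMA-overexpressing replicate 1. Over all tested genes 4.52% were called higher and 2.93% lower past both thresholds. HSPA1A had control counts of 6952 and 7464 against 2463 and 2340 with VIRMA, a log2 difference of -1.61 (edgeR adjusted p 2.74e-26, SE 0.0461). HSPA1B, named after its values were seen, is nearly identical to HSPA1A, so reads of the pair may be mixed. It showed a log2 difference of -1.25 (edgeR adjusted p 5.62e-22, SE 0.0502). Over the 66 genes 18 were higher and 34 lower at the adjusted p alone, with a median of -0.14 against 0.012 over all tested genes, of which 35.1% were higher and 35.9% lower. Upper-quartile factors gave 22 higher and 32 lower with a median of -0.065, and library totals 24 higher and 30 lower with a median of -0.051.

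**Figure D4:**
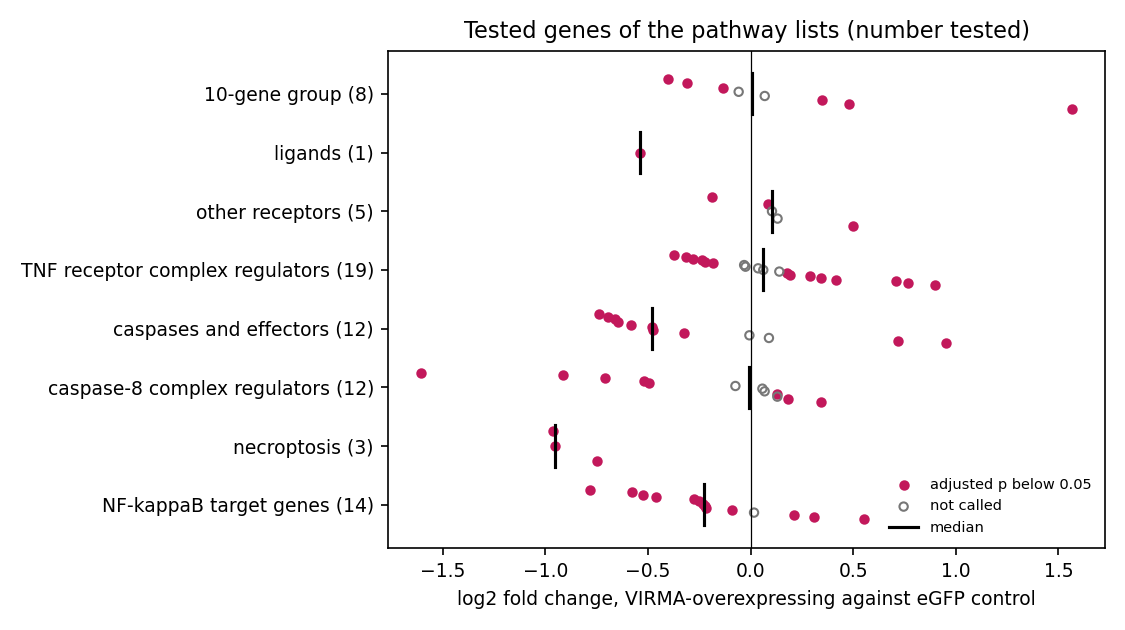
Log2 fold change of each tested gene in the group of 10 and in the 7 pathway lists (number tested in parentheses), with filled points for an edgeR adjusted p below 0.05, open points for genes not called and black lines for medians. The medians of caspases and effectors (-0.48) and of the 3 necroptosis genes (-0.95) lie below 0, and TNFRSF10B lies at the far right of its row. MLKL, 1 of the 3 necroptosis genes, passed the filter through the control libraries alone, so that median is no support for a change of the list.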

How the data were processed

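Poly-A-enriched, stranded mRNA libraries of SKBR3 cells were sequenced in 2 libraries per group. Per the study's methods, the authors checked reads with FastQC, trimmed them with Trimmomatic 0.39, aligned them to hg38 with STAR 2.5.2a and counted them per gene with featureCounts; what they deposited is a table of raw counts. Strand use and multiply aligned reads are not given in the sources used here. Gene positions are those of the counts table; of 34009 symbols found in GENCODE v44 (GRCh38), 99.84% overlapped in position. The VIRMA columns are headed by a number only; they were taken as VIRMA because the other columns name the eGFP control, and VIRMA counts were checked.

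RPKM used the library totals and deposited exonic lengths. The 12205 genes above 1 RPKM in at least 2 libraries were compared in edgeR 4.0.16 (R 4.3.3) by its quasi-likelihood F test, with TMM factors, a model of group alone and p-values adjusted by Benjamini-Hochberg over these genes. CPM used the counts of tested genes after TMM. SE was derived as the absolute log2 fold change over the root of F, and 95% intervals use the degrees of freedom of the fit. Calls needed an adjusted p below 0.05 and, where stated, a fold change above 2. The test was checked on simulated counts with few changed genes and independent replicates. That check does not cover data in which many genes are called, as here. Nothing in the labels says that libraries of a group came from separate cultures, although the methods speak of biological duplicates; if they did not, p-values measure technical spread. The replicates differed beyond sampling noise (chi-square per degree of freedom 6.01 for controls, 4.98 for VIRMA). The biological coefficient of variation that edgeR estimated between replicates was 3.93%. Neither value shows whether the libraries came from separate cultures. Limits for counts of 0 cover counting error only.

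The 10 genes, the 7 pathway lists (96 genes, 66 tested) and the named genes (all of the 10, VIRMA, DDIT3, ATF4, pathway genes past both thresholds, a set list of genes that bind the same ligands or act beside the 10, and genes with overlapping exons) were chosen with earlier results of these data known. The proteins of CASP8 and CFLAR were not analysed here. Some genes of the set list are not reported here. Alternatives were DESeq2 1.42.0, limma-voom (limma 3.58.1), 3 scalings, 2 filters, the replicate number as a block and leaving out each library.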

Additional observations from a re-analysis of the deposited data

How the results depend on the processing

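Over 8 alternatives that kept all libraries, 59 of 64 log2 fold changes of the tested genes had the same sign and the same call as in the report. TNFRSF10B ran from 1.518 to 1.653, CFLAR from 0.434 to 0.564, CASP8 from 0.303 to 0.432, and TNFRSF10A from -0.481 to -0.317 over all 12 alternatives, and these 4 kept their calls in each. Upper-quartile factors and library totals move the median of all tested genes from 0.0121 to 0.0836 and 0.0977, and with them TNFRSF1A was no longer called (-0.063 and -0.049) and RIPK1 turned positive (0.013 and 0.027). FADD was not called with library totals (-0.222), which left 1 gene lower in place of 3. RIPK1 ran from -0.133 to 0.014 when a library was left out, and was positive without VIRMA-overexpressing replicate 1, where FADD was not called (-0.261). The number of genes higher stayed at 3 under all 12 alternatives, the number lower was 2 or 3 when a library was left out, and the number past both thresholds stayed at 1.

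Among the pathway lists, 2 genes passed both thresholds with upper-quartile factors and with library totals (HSPA1A and CASP9), 3 with filterByExpr (HSPA1A, TRAF1 and RIPK3) and 2 with no filter (HSPA1A and TRAF1); these filters test more genes. Leaving out a library gave 1 to 4 genes, and 4 without eGFP control replicate 2 (HSPA1A, CASP9, RIPK3 and MLKL). With 1 library left in a group, that library is assumed to vary like the other group. Blocking on replicate number left 3 genes higher, 3 lower and 1 past both thresholds, and changed no call among the 8 tested genes. Same-numbered libraries deviated together with a correlation of 0.0753 across genes. With 2 libraries per group, this value does not show whether same-numbered libraries shared a batch. The RPKM ratio of CFLAR to CASP8 in the controls was 0.464, and 1.442 as a ratio of raw counts, since the lengths differ. TNFRSF10D and FAS had too few counts for a comparison.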
